A study of Mus musculus with 2 samples.

Results

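The genes described here are the 6 microRNA genes of a pair of paralogous clusters, out of 2202 microRNA genes counted. Mir23b, Mir27b and Mir24-1 lie in that order on mouse chromosome 13, and Mir23a, Mir27a and Mir24-2 lie in the same order on chromosome 8. They are defined by gene symbol, and the rule uses no counts. Small RNA was sequenced from tissue labelled layer of hippocampus. The mice were 10 days old, female and of strain B6CASTF1/J, a first-generation hybrid between C57BL/6J and the CAST strain. There was 1 group of 2 libraries, replicates 1 and 2. The description of each names 3 females, with other animal numbers in replicate 1 than in replicate 2, so a library reads as a pool of 3 animals, while the donor entry is shared. No treatment or genotype was compared, and the questions the data can answer are how abundant the 6 genes were, how the copies on the chromosomes compared, and how far the libraries differed.

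A microRNA gene is transcribed into a hairpin, and the hairpin is cut into mature forms of its 5′ arm (5p) and its 3′ arm (3p). Bases 2 to 8 of a mature form, the seed, pair with target messenger RNAs, which are then repressed. The mir-23, mir-27 and mir-24 clusters arose by duplication, and each is transcribed as a common precursor from which all of its hairpins are cut. Their 3p forms are the ones usually found in abundance. The clusters are known for roles in endothelial cells and vessel growth. In mouse, miR-23a represses lamin B1 during oligodendrocyte maturation, and miR-27 is known to repress PPAR gamma, a regulator of fat cell differentiation. For miR-24, repression of cell cycle genes is known from human cell lines.

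The mature forms show what the copies share and what a read can tell apart. All 6 genes matched RefSeq's microRNA table (build GRCm38.p6), with 10 distinct mature forms, named miR-23b-5p, miR-23a-5p, miR-23a-3p, miR-27b-5p, miR-27b-3p, miR-27a-5p, miR-27a-3p, miR-24-1-5p, miR-24-2-5p and miR-24-3p. The 3p form of Mir23b, miR-23b-3p, had no entry among the sequences used. Its sequence is therefore not printed, and the mir-23 3p forms were not compared. The 5p forms of Mir23b and Mir23a are shown first because they share only 10 nt in a row and have different seeds, so that a read of either has its own place. Capitals mark the seed in each line, read 5′ to 3′.
miR-23b-5p: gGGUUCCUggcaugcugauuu
miR-23a-5p: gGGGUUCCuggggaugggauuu
miR-23a-3p: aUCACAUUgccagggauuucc

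The mir-27 3p forms are shown next because they have the same seed and differ in 1 base of 21. The difference, written with the Mir27b base first and counted from 1 at the 5′ end, is U19C.
miR-27b-3p: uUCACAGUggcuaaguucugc
miR-27a-3p: uUCACAGUggcuaaguuccgc

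The mir-24 forms are shown because the 3p form is the same in Mir24-1 and Mir24-2 while the 5p forms differ. The 5p forms share their seed and 16 nt in a row, out of 23 and 22 nt.
miR-24-1-5p: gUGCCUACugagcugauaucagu
miR-24-2-5p: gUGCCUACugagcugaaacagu
miR-24-3p: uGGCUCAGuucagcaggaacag

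The Mir24-1 and Mir24-2 hairpins share a stretch of 28 nt, printed here with the 22 nt of miR-24-3p in capitals. It runs 3 nt past the mature form on either side.
shared stretch: cacUGGCUCAGUUCAGCAGGAACAGgag

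The longest stretch shared by the Mir23b and Mir23a hairpins was 20 nt, and that shared by the Mir27b and Mir27a hairpins was also 20 nt. Both are shorter than the 21 nt of miR-23a-3p, miR-27b-3p and miR-27a-3p. A shorter read that lies within such a stretch would still match at both copies. The files list reads with several genomic matches in a row of their own, outside the gene counts, and a read of miR-24-3p alone matches at Mir24-1 and at Mir24-2. Reads with several matches made up 43.2% of all reads in replicate 1 and 39.3% in replicate 2, and the miR-24-3p part of them is not known. The counts of Mir24-1 and Mir24-2 therefore do not give the level of miR-24-3p. Counts are per hairpin and do not separate the arms of any of the 6 genes.

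All 6 hairpins are on the plus strand in GENCODE M21, whose positions on mm10 (GRCm38) are given here. Mir23b (ENSMUSG00000065599.2, chr13:63300484-63300557) lies in an intron of 2010111I01Rik, a protein-coding gene. Mir27b (ENSMUSG00000065475.2, chr13:63300712-63300784) and Mir24-1 (ENSMUSG00000105904.1, chr13:63301208-63301275) overlap annotated exons of some transcripts of that gene. The opposite strand of all 3 lies in an intron of Fancc, a gene of DNA crosslink repair. Mir23a (ENSMUSG00000065611.1, chr8:84208518-84208592) and Mir27a (ENSMUSG00000065444.1, chr8:84208672-84208758) lie in no other annotated gene. Mir24-2 (ENSMUSG00000065541.1, chr8:84208815-84208921) overlaps the start of the exon of Gm26532, a long non-coding RNA gene. The chromosome 13 hairpins are farther apart, with gaps of 154 nt and 423 nt, against 79 nt and 56 nt on chromosome 8. A further microRNA gene is annotated opposite each mir-24 copy, Mir3074-1 (chr13:63301199-63301283) and Mir3074-2 (chr8:84208825-84208907).

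**Figure D1:**
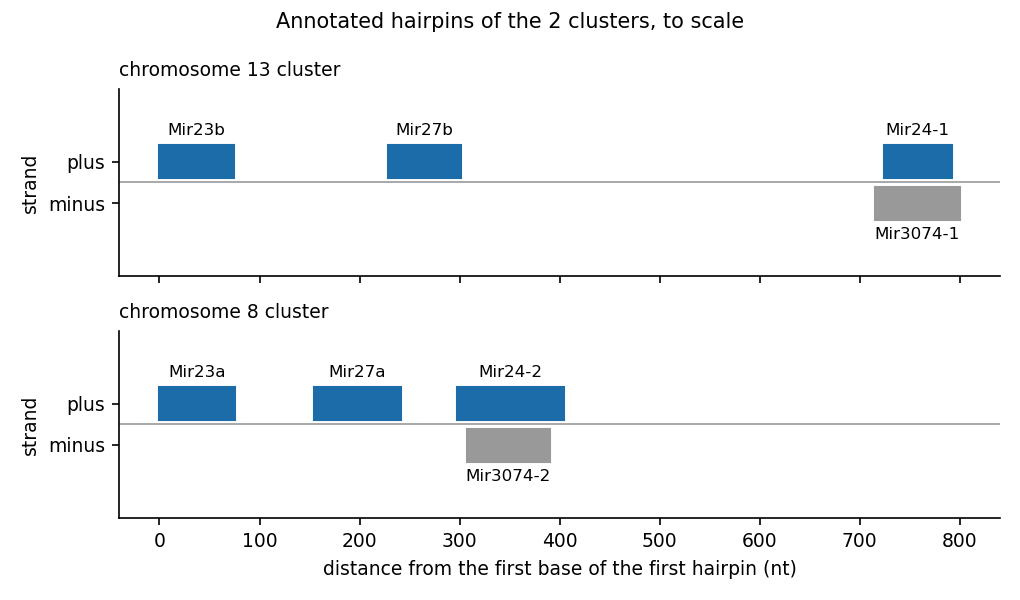
Annotated hairpins of the chromosome 13 cluster (top) and the chromosome 8 cluster (bottom), drawn to scale by distance in nt from the first base of the first hairpin. Blue boxes are the 6 genes on the plus strand and grey boxes are Mir3074-1 and Mir3074-2 on the minus strand, each of which overlaps a mir-24 hairpin.

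Replicate 1 held 5479267 sense-strand counts on microRNA genes and replicate 2 held 3563226, and levels are given as counts per 1000000 of these (CPM). Genes that reached 10 counts in both libraries were taken as detected, 429 in all. Beside the label of the tissue, 9 microRNAs known from neurons were measured, of which 7 were detected. All 9 summed to 26978 and 29632 CPM in replicates 1 and 2. Among them, Mir124a-1 only just passed, at 10 and 20 counts in replicates 1 and 2. Mir124a-3, at 9 and 5, did not, and neither did Mir124a-2. Reads that match at several of these numbered copies are outside their counts, so the counts do not give the level of miR-124. The levels of the 9 genes do not tell hippocampus from other brain tissue. The spread between the libraries covers animals, dissection and library preparation together.

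In uniquely placed reads, the clusters gave 1 abundant gene each and lower levels of its neighbours. All 6 genes were detected. Together they held 1.80% of the sense counts in replicate 1 and 2.30% in replicate 2, which is 2.05% ± 0.351 (SD, n = 2). The chromosome 13 cluster held 1.49% ± 0.129 and the chromosome 8 cluster 0.563% ± 0.222 (SD, n = 2 each). In single libraries the chromosome 13 share was 1.40% (exact Clopper-Pearson 95% interval 1.39 to 1.40) in replicate 1 and 1.58% (1.57 to 1.59) in replicate 2. The chromosome 8 share was 0.406% (0.401 to 0.411) in replicate 1 and 0.720% (0.711 to 0.728) in replicate 2. The intervals allow for counting error alone and treat each read as independent. PCR copies of a molecule were not told apart, so the intervals may be too narrow even for that error. The libraries lay outside each other's intervals.

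Mir23b, the 5′ gene of the chromosome 13 cluster, had 67965 counts in replicate 1 and 51969 in replicate 2. That is 12404 CPM and 14585 CPM, a mean of 13494 ± 1542 CPM (SD, n = 2). By uniquely placed reads it ranked 19th of all microRNA genes in replicate 1 and 14th in replicate 2. By its mean it stood above 96.3% of the detected genes. Mir23a, its copy on chromosome 8, had 21491 and 25135 counts, or 3922 and 7054 CPM in replicates 1 and 2. Its mean was 5488 ± 2214 CPM, and its ranks were 47 and 30. Of the 6 genes, Mir23a had the largest SD relative to its mean.

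Mir27b, the middle gene on chromosome 13, had 8201 and 4099 counts in replicates 1 and 2. Its levels were 1497 and 1150 CPM, with a mean of 1324 ± 245 CPM (SD, n = 2) and ranks 89 and 105. Mir27a, the middle gene on chromosome 8, had 580 and 332 counts, or 106 and 93.2 CPM, a mean of 99.5 ± 8.97 CPM. It lay in the middle of the detected genes, above 50.3% of them, and Mir27b lay above 76.2%.

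Mir24-1 had 277 and 159 counts in replicates 1 and 2, which is 50.6 CPM (exact interval 44.8 to 56.9) and 44.6 CPM (38.0 to 52.1). Its mean was 47.6 ± 4.19 CPM (SD, n = 2). Mir24-2 had 181 and 173 counts, or 33.0 CPM (28.4 to 38.2) and 48.6 CPM (41.6 to 56.3), a mean of 40.8 ± 11.0 CPM. These levels hold for reads with a unique place only, as given above. Per library the copies changed order, since Mir24-1 was the higher in replicate 1 and Mir24-2 in replicate 2.

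By mean CPM the order was Mir23b, Mir23a, Mir27b, Mir27a, Mir24-1 and Mir24-2, and the order was the same per 100 nt of annotated hairpin. Neighbours in this order did not overlap between libraries, except Mir24-1 and Mir24-2. Mir23b stood at 12404 CPM in its lower library and Mir23a at 7054 CPM in its higher one, and Mir27a at 93.2 CPM in its lower library and Mir24-1 at 50.6 CPM in its higher one. In uniquely placed reads, levels went by family before chromosome. Both mir-23 genes stood above both mir-27 genes, and both of these above the mir-24 genes. Summed over copies, the mir-23 family had 18983 ± 3757 CPM, the mir-27 family 1423 ± 254 CPM and the mir-24 family 88.4 ± 6.78 CPM (SD, n = 2 each). Reads of miR-24-3p alone are outside these counts, so the place and sum of the mir-24 genes are not those of miR-24-3p.

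**Figure D2:**
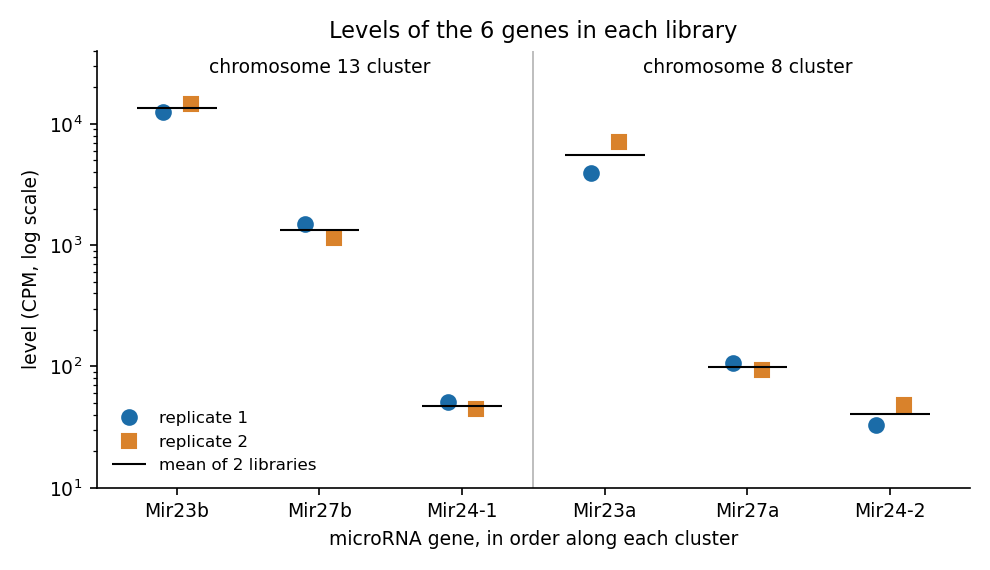
Level of each gene in CPM on a log axis, with replicate 1 as circles, replicate 2 as squares and the mean of the 2 libraries as a line. Within each cluster the mir-23 gene is highest and the mir-24 gene lowest, and the chromosome 13 copy is the higher one of the mir-23 and mir-27 pairs in both libraries.

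The chromosome 13 copy was the more abundant one for mir-23 and mir-27, by very different factors. For mir-24, no steady difference was seen in counts not scaled by hairpin length. Ratios were taken within a library, so no scaling between libraries enters them, and they are log2 of counts with 0.5 added. With 2 libraries a sign-flip permutation test of a log2 ratio cannot go below p = 0.5, so the ratios are given as values. Whether a ratio differed between the libraries was tested with a two-sided exact Fisher test of the counts. Its p-values were adjusted by Benjamini-Hochberg over 8 ratios, the 4 between chromosomes and 4 within clusters.

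Mir23b over Mir23a was 3.16-fold in replicate 1 and 2.07-fold in replicate 2, a mean log2 ratio of 1.35 ± 0.43 (SD, n = 2). Mir23b thus held 76.0% (exact 95% interval 75.7 to 76.3) of the pair's uniquely placed reads in replicate 1 and 67.4% (67.1 to 67.7) in replicate 2. The libraries differed in this ratio by 0.61 on the log2 scale, and the exact Fisher test returned an adjusted p of 0 at the precision of the software. Per 100 nt of hairpin the mean log2 ratio was 1.37.

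Mir27b over Mir27a was 14.1-fold in replicate 1 and 12.3-fold in replicate 2, a mean log2 ratio of 3.72 ± 0.14 (SD, n = 2). Mir27b held 93.4% (92.9 to 93.9) of the pair's uniquely placed reads in replicate 1 and 92.5% (91.7 to 93.3) in replicate 2. Per 100 nt of hairpin the mean log2 ratio was 3.98. A difference of this ratio between libraries was not called, with an adjusted p of 0.0611 in the exact Fisher test. Within each library the Mir27b share of its pair was above the Mir23b share of its pair, and the intervals of the shares did not overlap.

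Mir24-1 over Mir24-2 was 1.53-fold in replicate 1 and 0.919-fold in replicate 2, a mean log2 ratio of 0.25 ± 0.52 (SD, n = 2). Mir24-1 held 60.5% (55.8 to 65.0) of the pair's uniquely placed reads in replicate 1 and 47.9% (42.4 to 53.4) in replicate 2. The ratio differed between the libraries with an adjusted p of 0.000802 in the exact Fisher test, and its direction was not the same in them. Per 100 nt of hairpin the mean log2 ratio was 0.90, because the annotated hairpins have 68 nt for Mir24-1 and 107 nt for Mir24-2. On that scale Mir24-1 was the higher copy in each library, so the change of direction holds for counts not scaled by length. Summed over the cluster, chromosome 13 over chromosome 8 was 3.44-fold in replicate 1 and 2.19-fold in replicate 2, a mean log2 ratio of 1.46 ± 0.46.

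**Figure D3:**
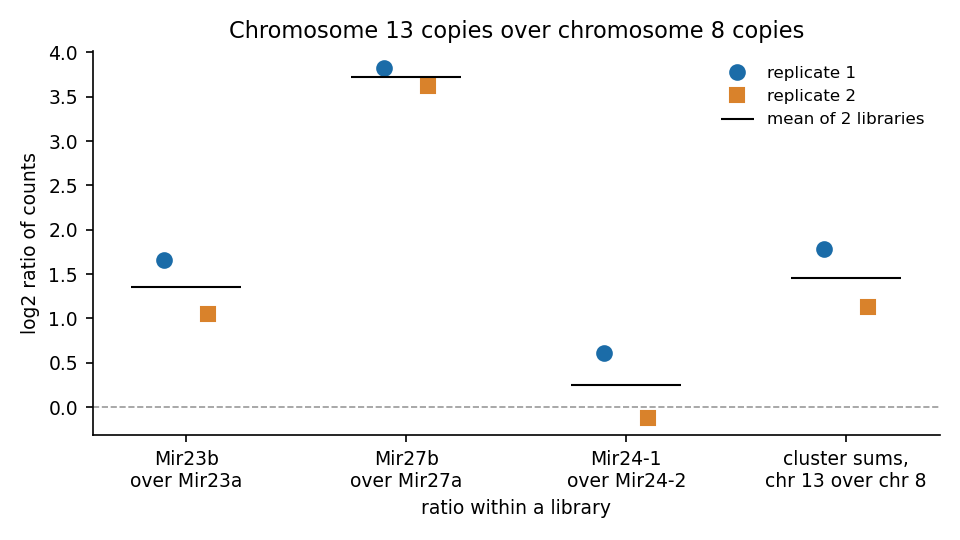
Log2 ratio of the chromosome 13 gene over its chromosome 8 copy within each library, with replicate 1 as circles, replicate 2 as squares, the mean as a line and equal counts as a dashed line. The mir-27 pair has the highest ratio, and the mir-24 pair lies on either side of 0.

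Within each cluster the counts of the 3 genes were far apart. Mir27b over Mir23b had log2 ratios of -3.05 in replicate 1 and -3.66 in replicate 2, so Mir27b stood 8.29-fold and 12.7-fold below Mir23b. Mir27a over Mir23a had log2 ratios of -5.21 and -6.24, and Mir27a stood 37.0-fold and 75.6-fold below Mir23a. The step down to the middle gene was smaller on chromosome 13 than on chromosome 8 in both libraries, and so it was per 100 nt of hairpin, with mean log2 ratios of -3.34 and -5.94. The mir-24 genes, in uniquely placed reads, stood lower still. Mir24-1 was 245-fold and 326-fold below Mir23b in replicates 1 and 2, and Mir24-2 was 118-fold and 145-fold below Mir23a.

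The mir-27 share of its cluster was higher in replicate 1 than in replicate 2 on both chromosomes. Mir27b over Mir23b was 1.53-fold higher in replicate 1 (exact Fisher test, adjusted p = 3.08e-103), and Mir27a over Mir23a was 2.04-fold higher (exact Fisher test, adjusted p = 1.85e-25). Mir24-1 over Mir23b was 1.33-fold higher in replicate 1 (exact Fisher test, adjusted p = 0.00564). For Mir24-2 over Mir23a, at 1.22-fold, no difference was called (exact Fisher test, adjusted p = 0.0611). These tests compare 2 libraries and cover counting error only.

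Mir23b held 90.8% of the summed mean CPM of its cluster and Mir23a 97.5%. Over all 13 clusters of at least 3 microRNA genes, joined within 10 kb on a strand and with a top gene of at least 1000 CPM, both of these included, the median share of the top gene was 60.3%. The other 4 clusters of 3 genes had shares of 99.9% (Mir449a), 98.35% (Mirlet7d), 76.6% (Mir93) and 45.8% (Mirlet7e). All of these shares leave out reads with several genomic matches, such as those of miR-24-3p alone, so the shares with them included are not known. These clusters and their leading genes were chosen after the members' values were seen, and the shares are descriptions.

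The libraries differed in 5 of the 6 genes by more than counting error. Each gene with at least 10 counts in each library was tested between libraries by an exact binomial test, two-sided and on TMM-scaled library sizes, with p-values adjusted by Benjamini-Hochberg over all 429 such genes. The test compares 2 libraries, not conditions, and called 61.3% of all genes tested, so such a difference is common and nothing particular to the 6 genes is read from their count. It called 32.6% of all genes higher in replicate 1, and 2 members, Mir27b and Mir27a. It called 28.7% lower in replicate 1, and 3 members, Mir23b, Mir23a and Mir24-2. None of the 6 differed 2-fold, as 52 of the 429 genes did. Their median absolute log2 ratio was 0.34, against 0.33 over all genes tested.

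Mir23a was the member with the largest difference, with a log2 ratio of replicate 1 over replicate 2 of -0.78, larger in size than that of 78.8% of the genes tested. The exact binomial test returned its adjusted p as 0 at the precision of the software. Mir23b moved the same way by less, at -0.17 on the log2 scale (adjusted p = 4.95e-91, exact binomial test). The small p for a small ratio goes with its high counts, 67965 in replicate 1 and 51969 in replicate 2.

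On the same scale Mir27b stood at 0.44 (adjusted p = 1.11e-58, exact binomial test) and Mir27a at 0.25 (adjusted p = 0.0234, exact binomial test). The call for Mir27a was lost with library totals as the scale, at a log2 ratio of 0.18 and an adjusted p of 0.102 in the exact test, against 0.00647 to 0.0335 under the other alternatives. Mir24-1, at 0.24, was not called (adjusted p = 0.144, exact binomial test), and Mir24-2 was lower in replicate 1, at -0.49 (adjusted p = 0.00266, exact binomial test). By direction the mir-23 genes were both lower and the mir-27 genes both higher in replicate 1. The signs of the 6 log2 ratios were the same when scaled by library totals or by the size factors of DESeq2.

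**Figure D4:**
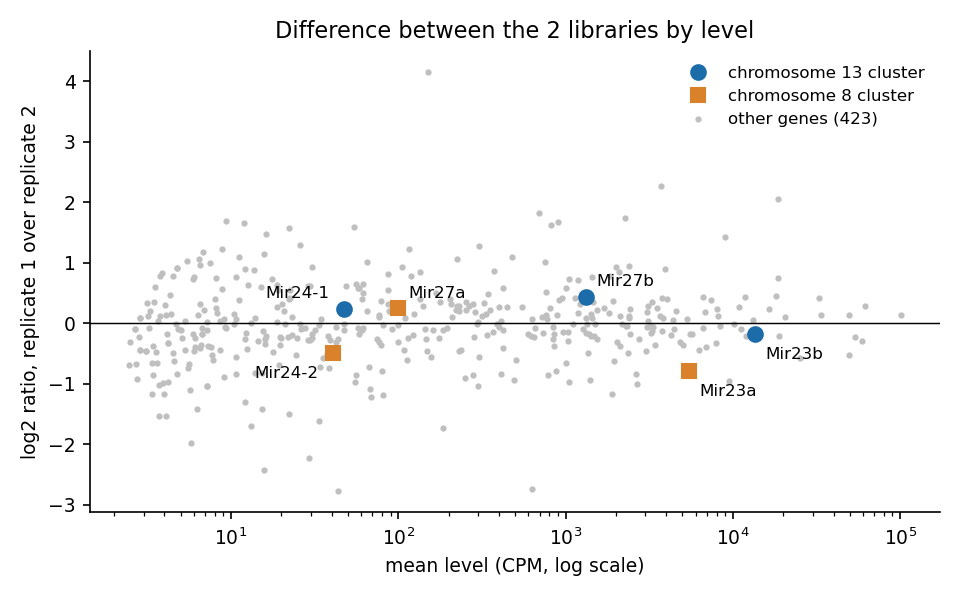
Log2 ratio of replicate 1 over replicate 2 (TMM-scaled) against mean level in CPM on a log axis for the 429 detected genes, with the chromosome 13 genes as circles, the chromosome 8 genes as squares and 423 other genes in grey. The 6 genes lie among the other genes, and Mir23a is the lowest of the 6.

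Markers of other cell types were measured beside these differences, and their part in them was not tested. In bulk tissue, fewer cells of a type and less RNA per cell cannot be told apart. Of 2 endothelial microRNAs 1 was detected, and their summed level was 8303 CPM in replicate 1 and 7986 CPM in replicate 2, almost all of it Mir126a. Vessel muscle microRNAs, with 2 of 3 detected and Mir145b at 0, summed to 3453 and 3152 CPM in replicates 1 and 2. Astrocyte microRNAs, 5 of 5 detected, summed to 2525 and 2588 CPM, within which Mir29a stood at 943 and 1874 CPM and Mir21a at 1354 and 441 CPM. Myeloid microRNAs, 4 of 4 detected, summed to 1207 and 977 CPM, of which Mir146 held 1069 and 832 CPM. Their log2 ratios of replicate 1 over replicate 2 were 0.42 for Mir146, 0.20 for Mir155, 0.60 for Mir223 and -0.74 for Mir142. Erythroid microRNAs, 3 of 3 detected, summed to 55.5 and 64.3 CPM. Oligodendrocyte microRNAs, 3 of 3 detected, summed to 1563 and 2041 CPM in replicates 1 and 2. Of these, Mir219a-2 stood at 760 and 1248 CPM, Mir338 at 783 and 776 CPM and Mir219a-1 at 20.1 and 17.4 CPM, so the higher sum in replicate 2 is that of Mir219a-2. Many of these genes are expressed in more than 1 cell type.

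Other genes share the letters of these seeds. The seed of miR-27, at bases 2 to 8, is in no other mature form of RefSeq's table at that place, but the same letters open miR-128-3p, at bases 1 to 7, marked here in capitals.
miR-128-3p: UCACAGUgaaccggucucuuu

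Of the genes of miR-128-3p, a form known from neurons, Mir128-1 on chromosome 1 had 6330 and 6945 CPM in replicates 1 and 2 and Mir128-2 on chromosome 9 had 2441 and 2352 CPM. The mir-27 genes summed to 1603 and 1244 CPM in these libraries. The miR-128-3p sequence is the same in both Mir128 genes, so their levels too cover only reads with a unique place. The seed of miR-24-3p is also that of a mature form of Mir5124b, Mir6369, Mir6410 and Mir6413, all 4 at 0 counts in replicates 1 and 2. For reads with a unique place, 0 counts leave room for 0.548 CPM in replicate 1 and, with its lower depth, 0.842 CPM in replicate 2.

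The mir-24 genes belong to a wider group of genes that share a whole mature form with another gene. Of 94 such genes in RefSeq's table, 47 were detected, and the detected ones had a median of 65.4 CPM. Of 924 genes whose mature forms are in no other gene, 338 were detected, with a median of 111 CPM. Mir24-1, at 47.6 CPM, and Mir24-2, at 40.8 CPM, were below both medians. Of 119 genes whose symbols end in a copy number, 47 were detected, with a median of 75.1 CPM, against 87.8 CPM over all detected genes. Each detected group passed the same minimum of counts, so these medians are descriptions only.

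The genes nearest in level were found by the distance in log2(CPM + 1) over the 2 libraries, which is a likeness of level over 2 points and no more. Nearest to Mir23b were Mir652, at 13145 and 13266 CPM in replicates 1 and 2 (distance 0.16), and Mir125a (0.25). Nearest to Mir23a were Mir138-1 (0.32) and Mir221 (0.39), and nearest to Mir27b were Mir7689 (0.18) and Mir134 (0.22). Mir27a lay nearest to Mir1193 (0.20) and Mir376b (0.23), Mir24-1 nearest to Mir1968 (0.18) and Mir494 (0.25), and Mir24-2 nearest to Mir679 and Mir181b-1 (0.16 each). No gene was nearest to more than 1 of the 6.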

How the data were processed

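The authors deposited raw read counts per microRNA gene, 1 file per library, for 2 libraries of small RNA below 30 nt. Build mm10 and annotation M21 are given per the deposited file notes, while aligner, counter and filters were not given in the sources used here. The strand column with the larger total was taken as sense, and 4 rows of reads without a gene were left out. These rows held 63.6% and 62.4% of all reads. Sequences came from RefSeq (GRCm38.p6).

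CPM, ratios, exact Clopper-Pearson intervals, exact binomial tests and exact Fisher tests were computed with scipy 1.17.1, TMM factors (0.979 and 1.02) with edgeR 4.0.16 and alternative size factors with DESeq2 1.42.0. The binomial test and the Fisher test were tested on simulated data. A chi-square of 274 per gene showed that the libraries were not copies. Library difference ratios add 0.5 counts.

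The members are defined by symbol alone, but they and the lists were chosen with earlier results of these data known. Named genes are the members, microRNA genes within 10 kb, genes sharing a seed, the 2 nearest in level per member and the cell type lists, and leaders of other clusters were named after their values were seen. Alternatives were other scalings, minimums and pseudocounts, counts without regard to strand, all reads as denominator, levels per hairpin length and leaving out each library.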

Additional observations from a re-analysis of the deposited data

Results flagged for a closer look

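The opposite strand of Mir24-1 held reads outside the sense counts, at 26 counts in replicate 1 and 96 counts in replicate 2, where a count of 0 would allow 3. These are the same reads that are the sense counts of Mir3074-1, and they made up 8.58% and 37.6% of the reads over Mir24-1 on both strands. As a gene of its own, Mir3074-1 had a log2 ratio of replicate 1 over replicate 2 of -2.42 (exact binomial test, adjusted p = 3.39e-17 over all 429 genes tested), while Mir24-1 on the other strand had 0.24. Mir3074-2, opposite Mir24-2, had no count in either library. The miR-3074-5p sequence is the same in Mir3074-1 and Mir3074-2, so reads of it alone match at both and are outside these counts. The other 5 members had no counts on the opposite strand.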

How the results depend on the processing

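The ratio of Mir24-1 over Mir24-2 reversed without replicate 1, to a log2 ratio of -0.12, against a mean of 0.25 over both libraries. Without replicate 2 it kept its direction, at 0.61. Each of these is the value of the library that remained. The shares of sense counts fell to 0.550% for the chromosome 13 cluster and 0.209% for the chromosome 8 cluster with all reads as the denominator, since that denominator also holds the reads without a gene. In counts without regard to strand, Mir24-1 and Mir24-2 were at 0 in both libraries, so 4 of 6 members were detected, and no mir-24 ratio could be given. Both overlap a microRNA gene on the opposite strand. The other ratios between and within clusters, the number of genes that differed between libraries (220 to 286, against 263) and the share of calls higher in replicate 1 (47.3% to 57.3%, against 53.2%) kept their direction or stayed within 1.5 times, except that the share crossed 50% with library totals. Of 34 recomputed library differences of single members, 33 kept their call and sign, and Mir27a with library totals lost its call. No paired analysis was possible because there was 1 group. Depth limits the mir-24 genes most, with 159 to 277 counts for Mir24-1 and 173 to 181 for Mir24-2 in a library.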

Other observations

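Neighbouring genes of other clusters show how far the libraries shifted genes of 1 cluster against each other. Over 704 pairs of detected genes in 32 other clusters, all with at least 100 counts on average, the median absolute difference between the library log2 ratios of a pair was 0.39, and 0.41 without the largest cluster, which gave 561 of the pairs. The difference was 1.03 for Mir27a and Mir23a, and 12.2% of the other pairs differed by as much or more. It was 0.61 for Mir27b and Mir23b, and 30.7% of the other pairs differed by as much or more. Pairs of 1 cluster share genes, so these shares are descriptions of the 2 libraries, chosen after the members' values were seen.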
